A study of Mus musculus with 30 samples.

Results

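The redox defence genes Nnt, Hmox1, Aldh1a1, Cat, Sod1, Sod2, Gpx1, Gpx3, Prdx1 and Txn1 were followed in the mouse kidney across age and diet. All probe sets that the array annotation gives to 1 of these symbols alone were taken, 12 probe sets for 10 genes, of 13041 probe sets and 6136 named genes on the arrays. The groups held 5 animals each. They were calorie-restricted mice aged 30 months, old controls of the same age on control food, and young controls aged 5 months on control food, and calorie restriction is a lowered food intake. All were C57BL/6 mice, an inbred laboratory strain. The labels name neither the substrain, the sex, the depth of restriction nor its starting age, and Nnt is known to be intact in some C57BL/6 substrains and deleted in part in another. Kidney total RNA of each mouse was measured on 2 types of 1-colour short-oligonucleotide array, 30 arrays in all. The titles number the samples of a group 1 to 5, with no word on whether each number is its own mouse. Each is treated as 1 animal here, and p-values measure only the spread between these samples, which may be technical. The old controls enter both labelled comparisons, so a high or low value in them moves the ageing and the diet result in opposite directions.

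Superoxide that leaks from respiration is turned into hydrogen peroxide by superoxide dismutases, and the peroxide is then removed by catalase, glutathione peroxidases and peroxiredoxins. The peroxidases draw their electrons through glutathione and thioredoxin from NADPH, part of which is made in mitochondria by the transhydrogenase encoded by Nnt. Heme oxygenase 1 (Hmox1) is a classic stress-induced enzyme of heme breakdown, and Aldh1a1 oxidises aldehydes, among them retinal. In the kidney the proximal tubule carries much of this machinery, and it is the main source of the secreted peroxidase Gpx3 in plasma.

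Expression is given as the deposited intensity, which is comparable between arrays for 1 probe set and not between probe sets. A background floor was taken as the root mean square of all negative intensities, 1103 on the first array type and 1815 on the second. A probe set was tested if it lay above the floor on at least 5 arrays, which 11 of the 12 redox defence probe sets did, against 4518 in all. Changes are differences of mean log2 intensity after the floor was applied, with limma's standard error. Adjusted p-values are Benjamini-Hochberg values over all 4518, and 0.05 was the threshold. In bulk RNA, fewer cells of a type and less RNA per cell cannot be told apart.

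Irregularities of these arrays bear on the values. Animals numbered 1 to 3 and those numbered 4 and 5 separated in every group on the first component of the variation within groups, which held 37.3% of it. What the numbers stand for is not given in the labels, so changes are also given within each set. In the young columns of the second array type, probe sets of 1 target that carry the suffixes i, f, s or r changed order against old controls in 25 of 26 measured pairs. Between calorie-restricted mice and old controls the order changed in 0 of 27. Probe sets of such targets are called the exchanged class below. None of the redox defence probe sets belongs to such a pair (0 of 12), and 5 of them are on this array type, those of Nnt, Sod2, Gpx1 and Prdx1 and 1 of Gpx3. Each is the only probe set of its target there, so the place of its young values could not be checked against a partner. Across probe sets outside that class, old and young means on this array type correlated with r of 0.937 over 1824 probe sets, against 0.966 over 2609 on the first array type and -0.20 over the 85 in the class.

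Kidney identity was checked with marker genes. The summed intensity of 7 proximal tubule markers ran from 246986 to 379454 in calorie-restricted mice, from 229370 to 403033 in old controls and from 272961 to 441973 in young controls, so the ranges overlapped. Sums here and below follow the brightest probe sets most. In this one Kap averaged 123577 ± 44303 in calorie-restricted mice, 117251 ± 51735 in old controls and 141470 ± 57020 in young controls (SD, n = 5 each). None of the 7 passed the test with age or diet, and 1, Fbp1, was lower in calorie-restricted than in young mice. Of 6 loop, distal tubule and collecting duct markers, Calb1 and Egf were lower with age (log2 changes -0.67 and -0.39, adjusted p 0.0265 and 0.0395), and Egf was higher with the diet (0.45, adjusted p 0.0331). The others of this list did not pass. With age Umod, Slc12a1 and Slc4a1 had log2 changes of 0.22, 0.16 and 0.27, and Slc12a3 had -0.06. The median of the list was 0.05 with age. Of the adrenal markers, Star, Pnmt and Chga lay at the floor on all arrays and 4 were tested. Fdx1, among those 4, was lower with age (-0.89, adjusted p 0.00414), as was Lpl of the 5 tested fat markers (-0.92, adjusted p 0.00234), while Lep lay at the floor. The summed fat markers were 11799 to 31641 in calorie-restricted mice, 17668 to 30725 in old controls and 28560 to 32891 in young controls. The summed adrenal markers were 12415 to 15121 in calorie-restricted mice, 12737 to 15333 in old controls and 13994 to 17432 in young controls. The summed loop, distal tubule and collecting duct markers were 95135 to 107897 in calorie-restricted mice, 81735 to 95407 in old controls and 84898 to 101086 in young controls. Fdx1 and Lpl were lower with age, as Nnt was, but the other tested markers of their lists did not pass. Of the adrenal ones, Nr5a1, Hsd3b1 and Th had log2 changes of 0.33, 0.04 and 0.33 with age. Of the fat ones, Adipoq and Retn had 0.51 and 0.39, and Fabp4 and Ucp1 had -0.16 and -0.11. The part of adrenal or fat tissue in the Nnt values was not tested.

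**Figure D1:**
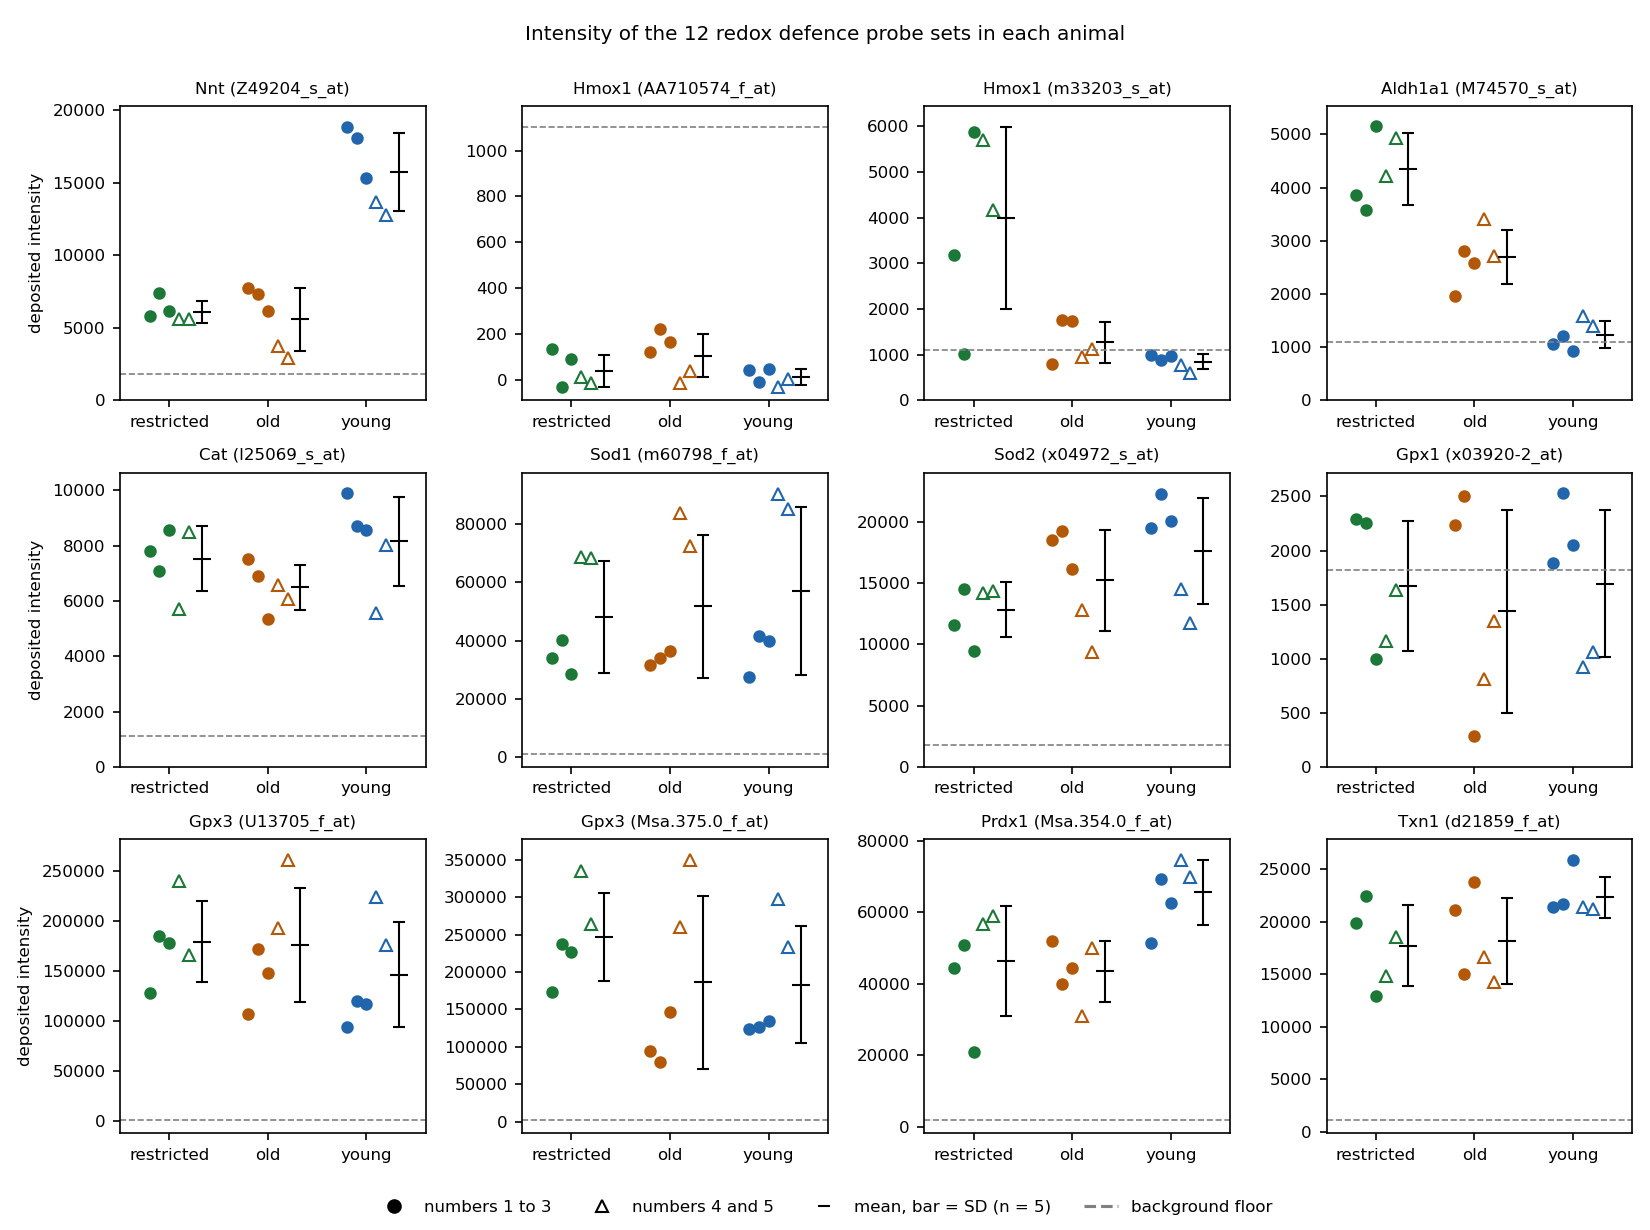
Deposited intensity (linear axes, each panel with its own scale) of the 12 redox defence probe sets in calorie-restricted, old control and young control kidneys. Each point is 1 animal, filled circles for numbers 1 to 3 and open triangles for 4 and 5, with the group mean and SD (n = 5) beside it and the background floor as a dashed line. The young controls stand above all old mice for Nnt, and the 3 groups of Aldh1a1 do not overlap.

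Nnt, the proton-driven mitochondrial transhydrogenase, was the redox defence gene with the largest decrease in old kidneys. Its probe set (Z49204_s_at) read 5811, 7395, 6145, 5624 and 5599 in calorie-restricted mice and 7773, 7338, 6157, 3757 and 2915 in old controls. Young controls read 18846, 18101, 15330, 13695 and 12761. Every young control lay above every old mouse of either diet, and the old controls numbered 4 and 5 were the lowest of all. Group means were 6115 ± 748 in calorie-restricted mice, 5588 ± 2159.7 in old controls and 15747 ± 2667 in young controls (SD, n = 5 each). Old controls were 2.99-fold below young controls (log2 change -1.58, SE 0.24), and calorie-restricted mice 2.56-fold below them (-1.36, SE 0.24). Nnt was chosen by its change with age, so these values are given without a test. Whether all groups were of 1 substrain is not given in the labels, and the place of the young values of this probe set could not be checked. The part of either in the difference was not tested. Within numbers 1 to 3 the log2 change with age was -1.30, and within numbers 4 and 5 it was -1.998.

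The diet did not move Nnt past the threshold. The log2 change between calorie-restricted and old controls was 0.22 (95% interval -0.28 to 0.72), with an adjusted p of 0.716. It was -0.14 within numbers 1 to 3 and 0.76 within numbers 4 and 5, where the 2 low old controls lie. The intensity of calorie-restricted mice varied less, with a coefficient of variation of 12.2% against 38.6% in old controls. The 3 genes of the same array type whose log2 values followed Nnt most closely over the 15 animals were Tmem14c (r of 0.852), Hsd11b1 (0.847) and Cycs (0.837), among 650 candidates. Hsd11b1, which regenerates active glucocorticoid, averaged 9409 in calorie-restricted mice, 9974 in old controls and 20169 in young controls. Cycs, the electron carrier cytochrome c, averaged 9744, 11537 and 21058 in these 3 groups. The young level is the highest in all of them, and the same arrays and the same group differences underlie each of these correlations.

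Hmox1, which opens heme to biliverdin, carbon monoxide and iron, was bright in most calorie-restricted mice and near background elsewhere. Its probe set m33203_s_at read 3180, 1024, 5884, 5695 and 4169 in calorie-restricted mice and 791, 1765, 1731, 942 and 1124 in old controls. Young controls read 1004, 877, 967, 775 and 594. Calorie-restricted number 2 lay below the floor, while the other 4 lay above every other mouse. In old controls 3 of 5 animals exceeded the floor, and in young controls 0 of 5 did. Group means were 3990.4 ± 1999 in calorie-restricted mice, 1271 ± 452 in old controls and 843 ± 165 in young controls (SD, n = 5 each).

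Calorie-restricted mice were 2.59-fold above old controls for this probe set (log2 change 1.37, SE 0.34), the difference this gene was chosen by, given without a test. The change was 0.87 within numbers 1 to 3 and 2.13 within numbers 4 and 5. Against young controls, all at the floor, calorie-restricted mice were 3.13-fold higher after the floor was applied, which also raised calorie-restricted number 2. With age the log2 change was 0.27 (95% interval -0.46 to 1.003, adjusted p 0.767), and the floor understates it. The other Hmox1 probe set, AA710574_f_at, stayed between -33 and 134 in calorie-restricted mice, between -13 and 221 in old controls and between -30 and 49 in young controls. It exceeded the floor on no array and was not tested, so the increase rests on 1 probe set. The genes most like Hmox1 over the 15 animals, among 2119 of its array type, were Axin1 (r of 0.900), a scaffold of Wnt signalling, Zg16 (0.887) and Cyp4a31 (0.858), of the Cyp4a family of fatty acid hydroxylases. Axin1 averaged 1695 in calorie-restricted mice, 419 in old controls and 597 in young controls, and Zg16 averaged 1986, 348 and 484. The control means of Axin1 and Zg16 lay below the floor of 1103. Floored values and the same group differences therefore enter these correlations.

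Macrophages and myeloid cells also make Hmox1, so their markers are given here. The summed intensity of 13 such markers was 25918 to 40544 in calorie-restricted mice, 44352 to 56057 in old controls and 25899 to 37013 in young controls. Old controls stood above both other groups in this sum, without overlap. With age 5 of 8 tested markers were higher and 0 lower, and with the diet 0 were higher and 2, C1qb and Ctss, lower. Adgre1, Csf1r, Fcgr3 and Mrc1 lay at the floor on all arrays. Old controls also stood above both other groups in the summed B and plasma cell markers. These sums were 25482 to 50865 in calorie-restricted mice, 87839 to 183448 in old controls and 21024 to 29358 in young controls. Of the 5 tested, Igha, Ighm and Jchain passed with age (log2 changes 4.54, 3.66 and 2.88). These 3 also passed with the diet, downward. Ms4a1 (-0.09 with age) and Cd79b (0.28) passed in no comparison. Against young controls, calorie-restricted mice kept higher Igha and Jchain (2.14 and 0.81, adjusted p 0.0118 and 0.0121). In that comparison 0 of 8 myeloid markers passed. The part of any of these cell types in the Hmox1 values was not tested.

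Aldh1a1, the cytosolic retinal dehydrogenase, was higher in old than in young kidneys and higher again under restriction. Its probe set (M74570_s_at) read 3867, 3583, 5157, 4218 and 4927 in calorie-restricted mice and 1960, 2808, 2589, 3399 and 2718 in old controls. Young controls read 1063, 1210, 931, 1582 and 1394. The 3 groups did not overlap, so every calorie-restricted mouse lay above every old control and every old control above every young one. Group means were 4350.4 ± 675 in calorie-restricted mice, 2695 ± 515 in old controls and 1236 ± 259 in young controls (SD, n = 5 each).

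The log2 change of Aldh1a1 was 1.07 with age (SE 0.16, 2.10-fold) and 0.70 with the diet (SE 0.16, 1.62-fold). Calorie-restricted mice were 3.40-fold above young controls (log2 change 1.77). Aldh1a1 was chosen by its changes in both comparisons, so no test is given. With age its change was 1.09 in numbers 1 to 3 and 1.04 in the other set, and with the diet 0.77 and 0.58. Only 3 of 5 young controls exceeded the floor, which understates the age difference. The genes most like it over the 15 animals, among 2119 candidates, were Prom1 (r of 0.928), the membrane glycoprotein prominin 1, Cyp4a31 (0.926) and Wfdc2 (0.901). Prom1 averaged 4656 in calorie-restricted mice, 3425 in old controls and 1793 in young controls, the same order of groups. As for Nnt, the same arrays and group differences underlie these correlations.

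The peroxide and superoxide enzymes gave no call in any comparison. They were Cat, Sod1, Sod2, Gpx1, Gpx3 and Prdx1, with 7 tested probe sets. With age 0 of 7 passed the threshold, against 5.16% of all 4518 tested probe sets, and 5 of the 7 changes were below 0 with a median of -0.11 against -0.04 over all. With the diet 0 of 7 passed, against 2.61% of all, and the median was 0.03, as over all tested probe sets (0.03). Between calorie-restricted and young mice 0 of 7 passed, against 5.71% of all. Without the exchanged class, those shares of all probe sets were 3.38% with age, 2.53% with the diet and 3.81% between calorie-restricted and young mice. With limma's unadjusted p, 1 of the 7 was below 0.05 with age, 0 with the diet and 1 between calorie-restricted and young mice, against 16.4%, 14.6% and 18.1% of all tested probe sets. A count of 0 among 7 is no departure from background shares this low. Groups overlapped for all 7 in each comparison, while 6.46% of all tested probe sets did not overlap with age, 4.16% with the diet and 7.24% between calorie-restricted and young mice. Of all 11 tested redox defence probe sets, 1 was higher and 1 lower with age (2.99% and 2.17% of all), and 2 were higher and 0 lower with the diet (0.907% and 1.7% of all). Between calorie-restricted and young mice 2 were higher and 1 lower (2.94% and 2.77% of all). Those are the probe sets of Nnt, Hmox1 and Aldh1a1, which were chosen for these contrasts, and nothing is read from their count. The diet call of Hmox1 was lost under 19 of 27 alternative settings and that of Aldh1a1 under 13 of 29.

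**Figure D2:**
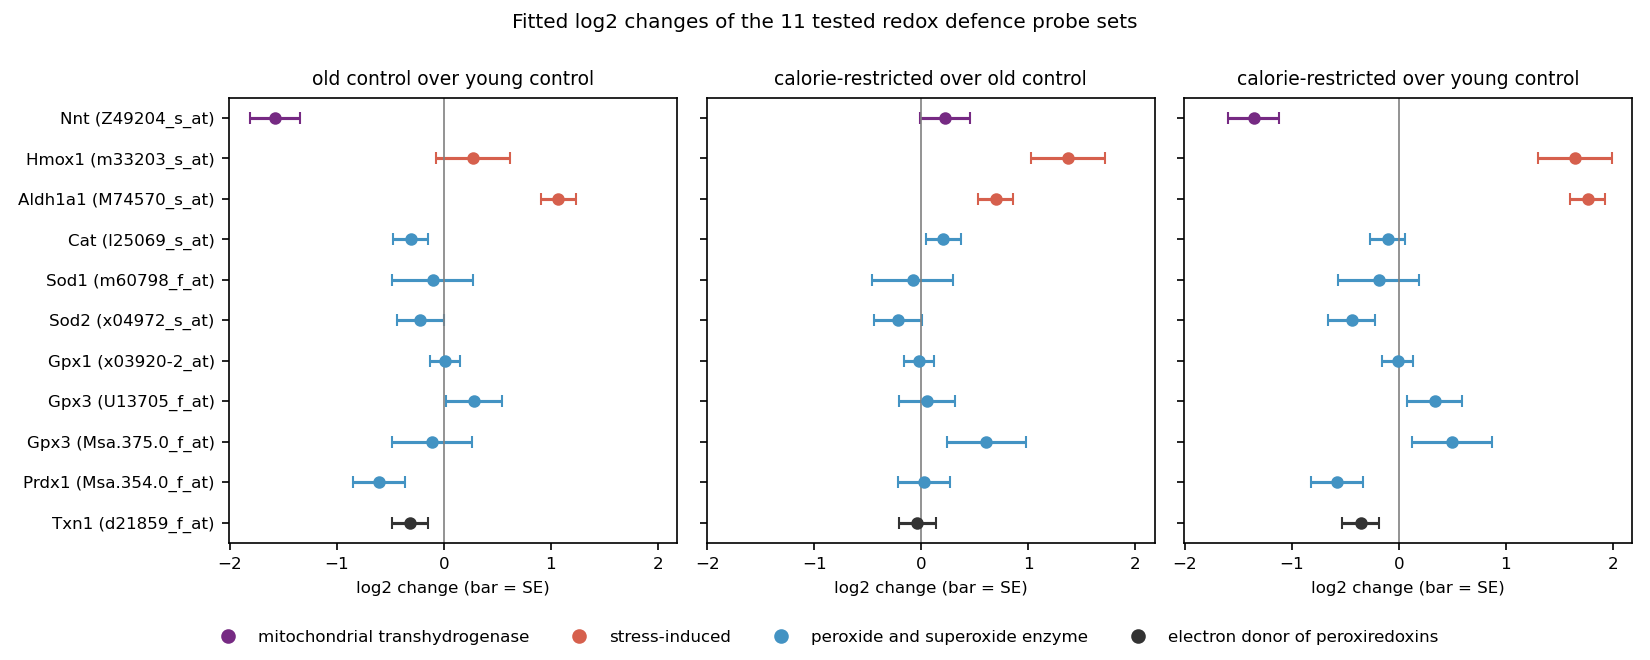
Log2 change with its standard error for the 11 tested redox defence probe sets in 3 comparisons, coloured by role. Nnt lies far below 0 in both comparisons with young controls, Aldh1a1 lies above 0 in all 3, and the 7 probe sets of peroxide and superoxide enzymes lie between -0.60 and 0.61.

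Superoxide dismutases were first in the chain. Sod1, the cytosolic copper-zinc enzyme (m60798_f_at), read 34165, 40242, 28490, 68583 and 68553 in calorie-restricted mice and 31725, 34194, 36520, 83716 and 72691 in old controls. Young controls read 27541, 41708, 39713, 90480 and 85338. The spread followed the animal numbers and not the groups, since numbers 4 and 5 were above numbers 1 to 3 in every group, by 1.999-fold, 2.29-fold and 2.42-fold in calorie-restricted, old control and young control mice. Its log2 change was -0.11 with age (95% interval -0.91 to 0.70, adjusted p 0.929) and -0.08 with the diet (-0.88 to 0.72, adjusted p 0.955). The fit behind these intervals has no term for the number set. With such a term the adjusted p was 0.695 with age and 0.774 with the diet. The changes were -0.07 and -0.01 within numbers 1 to 3, and -0.16 and -0.19 within numbers 4 and 5.

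Sod2, the manganese enzyme of the mitochondrial matrix (x04972_s_at), read 11598, 14536, 9443, 14179 and 14366 in calorie-restricted mice. Old controls read 18528, 19279, 16144, 12821 and 9371, and young controls 19511, 22324, 20062, 14546 and 11718. The old and young controls numbered 4 and 5 were lower than those numbered 1 to 3, and the groups overlapped. For Sod2 the log2 change was -0.22 with age (95% interval -0.69 to 0.25, adjusted p 0.704) and -0.22 with the diet (-0.69 to 0.25, adjusted p 0.697). Calorie-restricted against young mice gave -0.44 (-0.91 to 0.03, adjusted p 0.310). The last of these was -0.82 within numbers 1 to 3, where the adjusted p was 0.0229, and 0.13 within numbers 4 and 5. Only the first set alone passed, and the fit of all animals gave no call. With the diet the change was -0.62 within numbers 1 to 3 and 0.38 within numbers 4 and 5.

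Catalase, the peroxisomal enzyme that splits hydrogen peroxide, varied little. Its probe set (Cat, l25069_s_at) read 7809, 7086, 8569, 5704 and 8490 in calorie-restricted mice and 7525, 6908, 5348, 6579 and 6082 in old controls. Young controls read 9896, 8703, 8556, 5569 and 8030. Young control number 4 fell among the old mice, and the other 4 young controls lay above every old control. Cat changed by -0.31 log2 units with age (95% interval -0.66 to 0.04, adjusted p 0.379), 0.21 with the diet (-0.14 to 0.55, adjusted p 0.597) and -0.10 between calorie-restricted and young mice (-0.45 to 0.24, adjusted p 0.792).

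Glutathione peroxidases reduce peroxides with glutathione. Gpx1, the cytosolic form (x03920-2_at), lay near background, with intensities of 1001 to 2294 in calorie-restricted mice, 282 to 2508 in old controls and 927 to 2530 in young controls. Only 2, 2 and 3 of 5 animals of these groups exceeded the floor, so a change could not be measured well, and the fitted log2 changes were 0.01 with age (adjusted p 0.980) and -0.02 with the diet (adjusted p 0.966). Gpx3, the secreted form, had a probe set on each array type. U13705_f_at read 127650, 185052, 177857, 240142 and 166443 in calorie-restricted mice and 107557, 171988, 147960, 193251 and 260752 in old controls. Young controls read 94104, 120389, 117578, 223846 and 176370. As with Sod1, numbers 4 and 5 exceeded numbers 1 to 3 on average in every group. The log2 change was 0.28 with age (95% interval -0.27 to 0.83, adjusted p 0.670) and 0.05 with the diet (-0.50 to 0.60, adjusted p 0.956). With a term for the number set in the limma fit, the adjusted p was 0.393 with age and 0.902 with the diet.

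On the second array type, the other Gpx3 probe set read 172640, 237627, 226024, 334560 and 264055 in calorie-restricted mice. Old controls read 94996, 79023, 146757, 259464 and 349472, and young controls 123662, 126826, 134133, 297418 and 233179. Old controls spanned the widest range, and again numbers 4 and 5 were the higher ones in every group. The log2 change was -0.11 with age (95% interval -0.90 to 0.68, adjusted p 0.925), opposite in sign to U13705_f_at, and 0.61 with the diet (-0.18 to 1.39, adjusted p 0.488). With a term for the number set in the limma fit, the adjusted p was 0.799 with age and 0.108 with the diet. The diet change was 1.02 within numbers 1 to 3, with an adjusted p of 0.0323, and -0.02 within numbers 4 and 5. For U13705_f_at the same 2 values were 0.21 and -0.17, so the array types gave different sizes for 1 gene within 1 set of animals.

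**Figure D3:**
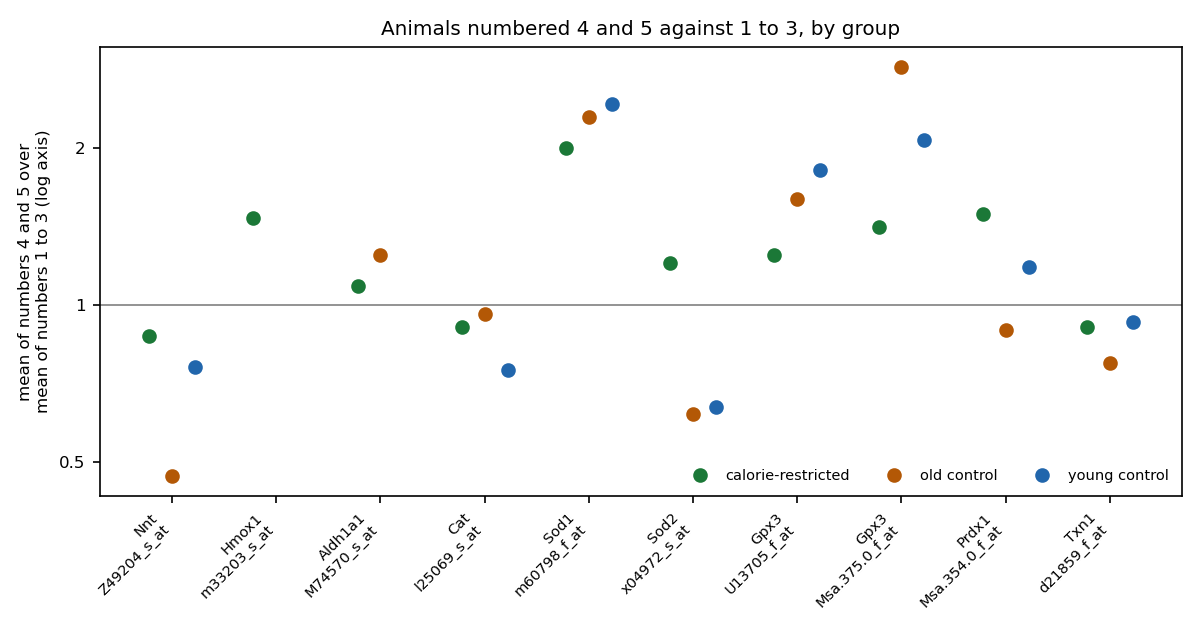
Mean intensity of animals numbered 4 and 5 over that of animals numbered 1 to 3 (log axis) for 10 redox defence probe sets, in calorie-restricted, old control and young control kidneys. A group is left out where the mean of either set lay below the floor, which removes 2 groups of Hmox1, 1 of Aldh1a1 and all of Gpx1. Sod1 lies at 1.999 to 2.42 and both Gpx3 probe sets lie above 1 in all groups, while Nnt lies below 1 in all groups, at 0.471 in old controls.

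Peroxiredoxins reduce peroxide through a reactive cysteine that thioredoxin restores. Prdx1, the cytosolic form with 1 probe set on the second array type, read 44480, 50822, 20945, 56733 and 59113 in calorie-restricted mice and 52104, 39938, 44314, 31056 and 50112 in old controls. Young controls read 51375, 69305, 62677, 74584 and 69983. All young controls except number 1 exceeded every old mouse of either diet, and calorie-restricted number 3 stood far below the rest of its group. For Prdx1 the log2 change was -0.60 with age (95% interval -1.12 to -0.09, adjusted p 0.207) and -0.58 between calorie-restricted and young mice (-1.09 to -0.06, adjusted p 0.220). Neither passed after adjustment. Without calorie-restricted number 3, which enters the shared estimate of the spread but not the age difference, the age change was the same and its adjusted p was 0.0351. With the diet the change was 0.03 (-0.49 to 0.54, adjusted p 0.976), made of -0.32 within numbers 1 to 3 and 0.55 within numbers 4 and 5.

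Txn1, the thioredoxin that passes electrons to peroxiredoxins (d21859_f_at), read 19851, 22454, 12947, 14821 and 18549 in calorie-restricted mice and 21073, 15047, 23817, 16652 and 14262 in old controls. Young controls read 21445, 21680, 25835, 21377 and 21246, of which 4 lay within a narrow range. The coefficient of variation was 21.6% in calorie-restricted mice, 22.6% in old controls and 8.84% in young controls. For Txn1 the log2 change was -0.32 with age (95% interval -0.68 to 0.05, adjusted p 0.395), -0.04 with the diet (-0.40 to 0.33, adjusted p 0.952) and -0.36 between calorie-restricted and young mice (-0.72 to 0.01, adjusted p 0.289). Of the 12 redox defence probe sets, 6 carry the suffix f, those of Sod1, Gpx3, Prdx1 and Txn1 and the faint one of Hmox1, and signal from related sequences in them was not tested. A further probe set that names Prdx1 together with another gene was not used.

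Upstream sequences of the members are shown because many genes of this defence are known targets of the transcription factor NRF2, which binds antioxidant response elements. The core TGACNNNGC was searched on both strands in the 250 bases before each RefSeq gene start (GRCm38.p6), where 8 of the 10 genes had an entry, in 9 windows. Nnt and Hmox1 had no entry, so their upstream bases were not searched. The core occurred in 2 of the 9 windows, those of Prdx1 and Sod1, against 3338 of 32851 windows of the same length (10.2%). Prdx1 and Sod1 hold it on the opposite strand, and it is in capitals below. Neither gene passed the test in any comparison. The core letters are absent from both windows of Aldh1a1, shown because it is the gene whose 3 groups did not overlap. A match is a description of the letters and not a site in use.
Prdx1, chr4:116685349-116685598, plus strand: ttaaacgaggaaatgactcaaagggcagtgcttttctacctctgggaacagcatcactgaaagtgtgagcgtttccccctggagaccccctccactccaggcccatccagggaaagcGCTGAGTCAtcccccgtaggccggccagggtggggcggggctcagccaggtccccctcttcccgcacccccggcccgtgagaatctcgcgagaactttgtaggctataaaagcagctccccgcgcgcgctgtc
Sod1, chr16:90220512-90220761, plus strand: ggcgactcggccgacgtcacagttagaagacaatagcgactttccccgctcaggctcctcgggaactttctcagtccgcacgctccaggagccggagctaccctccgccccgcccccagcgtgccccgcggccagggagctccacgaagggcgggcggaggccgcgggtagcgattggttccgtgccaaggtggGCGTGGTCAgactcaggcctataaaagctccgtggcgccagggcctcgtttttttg
Aldh1a1 first start, chr19:20492333-20492582, plus strand: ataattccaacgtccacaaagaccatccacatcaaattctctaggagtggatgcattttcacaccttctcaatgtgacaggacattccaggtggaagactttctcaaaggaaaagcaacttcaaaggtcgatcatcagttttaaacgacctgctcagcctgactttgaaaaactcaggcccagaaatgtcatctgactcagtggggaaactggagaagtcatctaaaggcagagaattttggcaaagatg
Aldh1a1 second start, chr19:20601718-20601967, plus strand: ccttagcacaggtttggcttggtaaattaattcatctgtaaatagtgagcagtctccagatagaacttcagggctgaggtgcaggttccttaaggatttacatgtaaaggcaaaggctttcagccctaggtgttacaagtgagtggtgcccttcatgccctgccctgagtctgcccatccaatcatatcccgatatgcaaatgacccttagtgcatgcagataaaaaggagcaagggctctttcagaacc

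Other genes of these pathways were set beside the members through 10 lists, with the brightest tested probe set of each gene. Of 152 genes, 87 were on the arrays and 58 were tested. With age 3 of the 58 were higher and 0 lower, with a median log2 change of -0.02 against 0.00 over 2668 genes. With the diet 0 were higher and 2 lower, with a median of -0.02 against 0.01. Between calorie-restricted and young mice 1 was higher and 3 were lower. By the same rule 3.34% of the 2668 genes passed with age, 1.91% with the diet and 4.69% between calorie-restricted and young mice, so a few calls among 58 genes are near the background. By limma's unadjusted p, 11 of the 58 were below 0.05 with age, 9 with the diet and 18 between calorie-restricted and young mice, against 13.8%, 14.2% and 18.1% of all genes. These counts lie above the shares of all genes, the most so between calorie-restricted and young mice. That excess was not tested.

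Among the other peroxide and superoxide enzymes 0 of 5 tested genes passed in any comparison. Gpx4, the phospholipid hydroperoxide peroxidase, and Prdx2 were the brightest, with log2 changes of -0.21 and -0.31 with age and 0.13 and 0.18 with the diet. In the thioredoxin and glutaredoxin list, 1 of 6 genes passed, Msrb1, a selenoprotein that repairs oxidised methionine. It fell with the diet, with 5843 ± 655 in calorie-restricted mice and 8685 ± 1734 in old controls (SD, n = 5 each; log2 change -0.56, adjusted p 0.0450). Against young controls, at 10613 ± 929.6, its log2 change in calorie-restricted mice was -0.86 (adjusted p 0.000929). The glutathione list had 3 tested genes and 0 calls.

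The 10 tested genes of the NRF2 list, a pathway that also induces Hmox1, gave 0 calls with age and 0 with the diet. By limma's unadjusted p, 3 of the 10 were below 0.05 with age, 1 with the diet and 5 between calorie-restricted and young mice. The last ones went in both directions, as with Cbr1 (log2 change 0.47) and Taldo1 (-0.56). Ftl1 and Fth1, the ferritin chains that store the iron heme oxygenase frees, were the brightest. Their log2 changes were -0.17 and -0.20 with the diet (adjusted p 0.757 and 0.561) and 0.14 and 0.18 with age (adjusted p 0.799 and 0.597). Me1, the cytosolic malic enzyme that makes NADPH, was lower in calorie-restricted than in young mice (3553 ± 546 and 5819.8 ± 1246; log2 change -0.70, adjusted p 0.0261). It was the only call among the 6 tested genes of the NADPH supply list, which also holds Tkt, Taldo1 and Mthfd2. Idh1 and Idh2, the brightest, had changes of 0.01 and -0.07 with age and 0.03 and 0.20 with the diet. The list holds Nnt's neighbours in NADPH supply, and none of its genes passed with age.

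In the heme and iron list, 1 of 11 genes passed, the copper ferroxidase Cp. It averaged 3378 ± 826 in calorie-restricted mice, 4156 ± 1189 in old controls and 1853 ± 208 in young controls. Its log2 change was 1.07 with age (adjusted p 0.00202), -0.29 with the diet (adjusted p 0.534) and 0.79 between calorie-restricted and young mice (adjusted p 0.0233).

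Of the aldehyde dehydrogenases, 0 of 4 tested genes passed in any comparison. Aldh2, the bright mitochondrial form, averaged 44523 ± 12914 in calorie-restricted mice, 33399 ± 5639.7 in old controls and 33498 ± 5596 in young controls, with an adjusted p of 0.478 for the diet. Aldh1a7, a close paralogue of Aldh1a1 named here after its values were seen, averaged 2489 ± 1172 in calorie-restricted mice, 1824 ± 599.6 in old controls and 709 ± 773 in young controls. That is the order of groups seen for Aldh1a1, near the floor of its array type, with log2 changes of 0.18 with age and 0.27 with the diet (adjusted p 0.728 and 0.571). Whether the 2 probe sets share signal was not tested. In the retinoid list 1 of 8 genes passed, the retinol carrier Rbp4, which fell with the diet (2515 ± 467 in calorie-restricted mice, 3771 ± 547 in old controls; log2 change -0.60, adjusted p 0.0468).

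None of 4 superoxide and peroxide sources passed in any comparison (0 calls). Among 9 metallothioneins and selenoproteins, 2 rose with age. Mt3, a metal-binding thiol protein, averaged 3265 ± 1679 in calorie-restricted mice, 4604 ± 1529 in old controls and 1633 ± 1202 in young controls, with a log2 change of 1.24 with age (adjusted p 0.0441). Selenow changed by 0.52 with age (adjusted p 0.0493). Selenop, the selenium transport protein, was lower in calorie-restricted than in young mice (22983 ± 1108 and 37059.8 ± 6486; log2 change -0.67, adjusted p 0.00492).

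**Figure D4:**
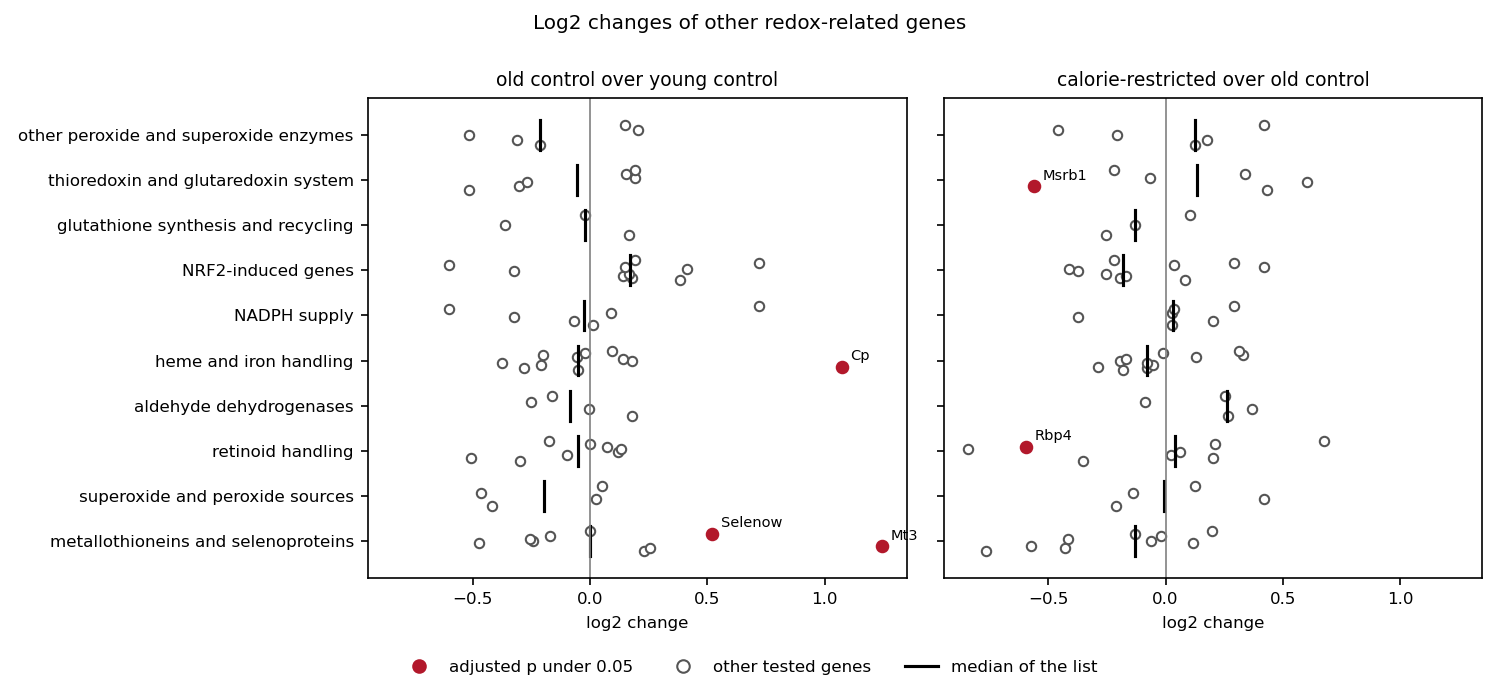
Log2 change of each tested gene of 10 redox-related lists for old control over young control (left) and calorie-restricted over old control (right), with the list median as a bar. Filled points passed the adjusted threshold, which were Cp, Selenow and Mt3 with age and Msrb1 and Rbp4 with the diet. The redox defence genes themselves are not plotted.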

How the data were processed

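Per the labels, kidney total RNA of 3 groups, each numbered 1 to 5, was hybridised to 2 array types. The deposited tables hold whole-number intensity values per probe set, with 20.8% to 26.6% negative values per array in the first and 29.2% to 35.9% in the second. The array software is not given in the sources used here. Array annotation gave 7530 probe sets 1 symbol, 224 several and 5287 none, and 7513 symbols were updated by gene number.

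Arrays of a table were brought to 1 trimmed mean (2% cut at each end, factors 0.997 to 1.01), floored and log2 transformed. A single limma model (lmFit, eBayes; limma 3.58.1, R 4.3.3) held the 3 groups, and p-values were adjusted by Benjamini and Hochberg's method over all tested probe sets of both array types. The fit was tested on simulated data. Members and lists were chosen with earlier results of these data known. Named were all member probe sets, up to 4 called and the 2 brightest other genes per list, and 3 genes most correlated with each of Nnt, Hmox1 and Aldh1a1. Same-numbered old and young controls deviated together (r of 0.221 to 0.496), but so did other numbers of the same set (0.180 to 0.534), and 0 of 5 old controls correlated best with their own number. The block by number is therefore given only as an alternative. For the diet, same-number r was -0.01 to 0.40. The number of arrays limits the precision. Figures were drawn with matplotlib 3.10.9.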

Additional observations from a re-analysis of the deposited data

Results flagged for a closer look

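Within groups of 5, 2 of the 32 member values by group that varied held an animal that stood apart by Dixon's criterion, which compares the gap to the nearest animal with the whole range of the group. Chance gives about 1 such animal in 20 groups. For Prdx1, calorie-restricted number 3 was the lowest, at an intensity of 20945, and its gap took 0.726 of the range of log2 values. For Txn1 (d21859_f_at), young control number 3 was the highest, at 25835, and its gap took 0.905 of the range, since the other 4 young controls lay close together.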

How the results depend on the processing

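The alternatives were no further scaling, quantile normalization, the floor halved or doubled, other filters, asinh in place of log2, robust moderation with a trend, fits of the compared groups alone, a replicate block, the number set, and leaving out each animal. Leaving out the exchanged class was chosen after seeing the data. Over 945 member values under alternatives, 850 kept direction and call, 0 called values changed direction, 58 changes that passed no threshold altered their sign or were at 0, 34 lost and 3 gained a call. The called values are those of Nnt, Hmox1 and Aldh1a1, which were chosen for these contrasts. Other filters, or omission of an animal outside the compared groups, leave a log2 change the same by construction. Nothing is therefore read from the kept directions. The age change of Nnt, which it was chosen by, lay between -1.998 and -1.30 over 29 alternatives. The diet change of Hmox1 lay between 0.87 and 2.13 over 27 and lost its call in 19, among them the omission of any animal except calorie-restricted number 2. The diet change of Aldh1a1 lay between 0.58 and 0.79 over 29 and lost its call in 13, among them the omission of calorie-restricted number 1, 3, 4 or 5 or old control number 1, 2, 3 or 5. Its age change lost the call with the floor doubled, at 0.30. Under quantile normalization 9 of 11 member probe sets kept the order of group means.

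For ageing, 233 probe sets passed, against 146 with numbers 4 and 5 alone and 150 without the exchanged class, and 179 to 254 when 1 animal was left out. For the diet, 118 passed, against 68 with no filter, 55 with the filter at 8 arrays, 72 with the compared groups alone, 224 with the number set as a term, 253 with numbers 1 to 3 alone and 9 with numbers 4 and 5 alone, and 73 to 133 when 1 animal was left out (73 without calorie-restricted number 1, 78 without number 5). For calorie-restricted against young mice, 258 passed, against 439 with the number set as a term, 104 with numbers 4 and 5 alone and 169 without the exchanged class, and 195 to 266 when 1 animal was left out. Fewer animals or genes tested enter some of these by construction, and otherwise the cause was not tested. With the replicate block, which pairs animals by number, 277 passed with age and 170 with the diet, and no call of a member changed. Values near the floor limit Gpx1 and Hmox1.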
